A study of Mus musculus with 16 samples.

Results

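Interferon-stimulated genes and genes of the immunoproteasome were examined in mouse liver as 1 group of genes, the members, taken from a list of gene symbols in the deposited table. The table holds 17003 genes, and 43 of 43 listed symbols were found in it. Liver polyA RNA was sequenced from 16 male mice, 8 weeks old, fed and on normal chow, with 1 strand-specific DNBSEQ library per mouse. The 8 Fgl1 WT mice carried floxed Fgl1 alleles and no Cre. The 8 Fgl1 LKO mice were littermates with the same floxed alleles and a Cre recombinase driven by the albumin promoter, which acts in hepatocytes, so that the other cells of the liver kept Fgl1. The comparison asks how loss of Fgl1, a protein secreted by hepatocytes, goes with the liver's RNA. The study's methods give 7 mice per genotype and a figure legend gives 8, and the 16 libraries deposited were all used. RNA came from whole liver, so fewer cells of a type and less RNA per cell cannot be told apart. The mice were numbered, and the numbers fall into 4 runs, from 36 to 38, 48 to 55, 60 to 64 and 69 to 72, of which the first holds 3 Fgl1 WT mice and no Fgl1 LKO mouse.

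Interferons bind receptors on the cell surface, and the receptors activate kinases of the JAK family, which phosphorylate transcription factors such as STAT2. STAT2 and IRF9 belong to a complex that binds the interferon-stimulated response element, other complexes bind the gamma-activated site, and the genes so induced restrict viruses, tune the cell's own signalling and exchange the catalytic subunits of the proteasome for the inducible ones that make peptides for antigen presentation. Liver cells of many types, hepatocytes and the resident macrophages called Kupffer cells among them, carry these receptors and keep a low level of such genes without infection.

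Values are FPKM, fragment numbers divided by transcript length and by the library's mapped fragments. The number of reads per library is not given in the table, so the counting error is unknown. Summed FPKM lay between 673153 and 786188 per mouse, and between 14116 and 14407 genes were above 0. A relative depth estimated from the lowest values lay between 0.966 and 1.02. The hepatocyte markers Alb, Apoa1, Ttr, Cps1, Cyp2e1, Ass1 and Serpina1a were abundant in every mouse, with a summed level of 57024 to 92965 FPKM in the Fgl1 WT mice and of 52314 to 76262 FPKM in the Fgl1 LKO mice. Alb was the most abundant of them at a mean of 41750 FPKM. Fgl1 itself lay between 158 and 1331 FPKM in the Fgl1 WT mice, with a median of 312, and between 13.2 and 89.99 FPKM in the Fgl1 LKO mice, with a median of 50.3. Every Fgl1 LKO mouse was below every Fgl1 WT mouse. The study's deletion removes an exon of Fgl1. Whether the Fgl1 reads left in the Fgl1 LKO mice came from the other exons or from other cells was not tested. The log2 fold change of Fgl1, Fgl1 LKO minus Fgl1 WT, was -3.11 and its limma adjusted p was 0.0725, with all 8 Fgl1 LKO mice below the Fgl1 WT median. Over the alternative fits this adjusted p ran from 0.0197 to 0.274, and it was 0.025 in the fit with a term for these runs.

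The members were compared between genotypes with limma on log2(FPKM + 1), fitted over the 12770 genes whose mean over the 16 mice was at least 0.1 FPKM, and p-values were adjusted over all of them. All 43 members passed this filter, and all were above 0 in every mouse. Their mean levels ran from 0.311 FPKM for Oas3 to 187 FPKM for Bst2. With limma, 0 of 43 members had an adjusted p under 0.05, and the share over all genes was 0%. The smallest adjusted p of a member was 0.685, for Dtx3l, whose log2 fold change was 0.34 and which was above the Fgl1 WT median in 8 of 8 Fgl1 LKO mice. An unadjusted limma p under 0.05 was found for 6 members, Dtx3l, Zbp1, Irgm1, Gbp7, Irf7 and Parp14, which is 13.95% of the members beside 7.01% of all genes tested. All 6 were higher in the Fgl1 LKO mice, a direction that 4.64% of all genes took with such a p. By an exact rank-sum test, 5 members had an unadjusted p under 0.05, beside 6.58% of all genes, and 0 an adjusted one.

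The log2 fold change was above 0 in 40 members, or 93.0%, beside 55.8% of all genes tested. Its median was 0.18 over the members and 0.01 over all genes. The members ran from -0.05 for Mx2 to 0.54 for Zbp1, and the others below 0 were Bst2 and Ifih1. The ranges of the genotypes overlapped in 43 of 43 members, and in all but 2 of the 12770 genes tested. In 3 members, Dtx3l, Dhx58 and Psmb8, all 8 Fgl1 LKO mice were above the Fgl1 WT median, a pattern found in 3.09% of all genes. At least 7 did so in 16 members, beside 12.0% of all genes, at least 5 in 38, beside 45.4% of all genes, exactly 4 in 4 members, and fewer in 1, Bst2.

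**Figure D1:**
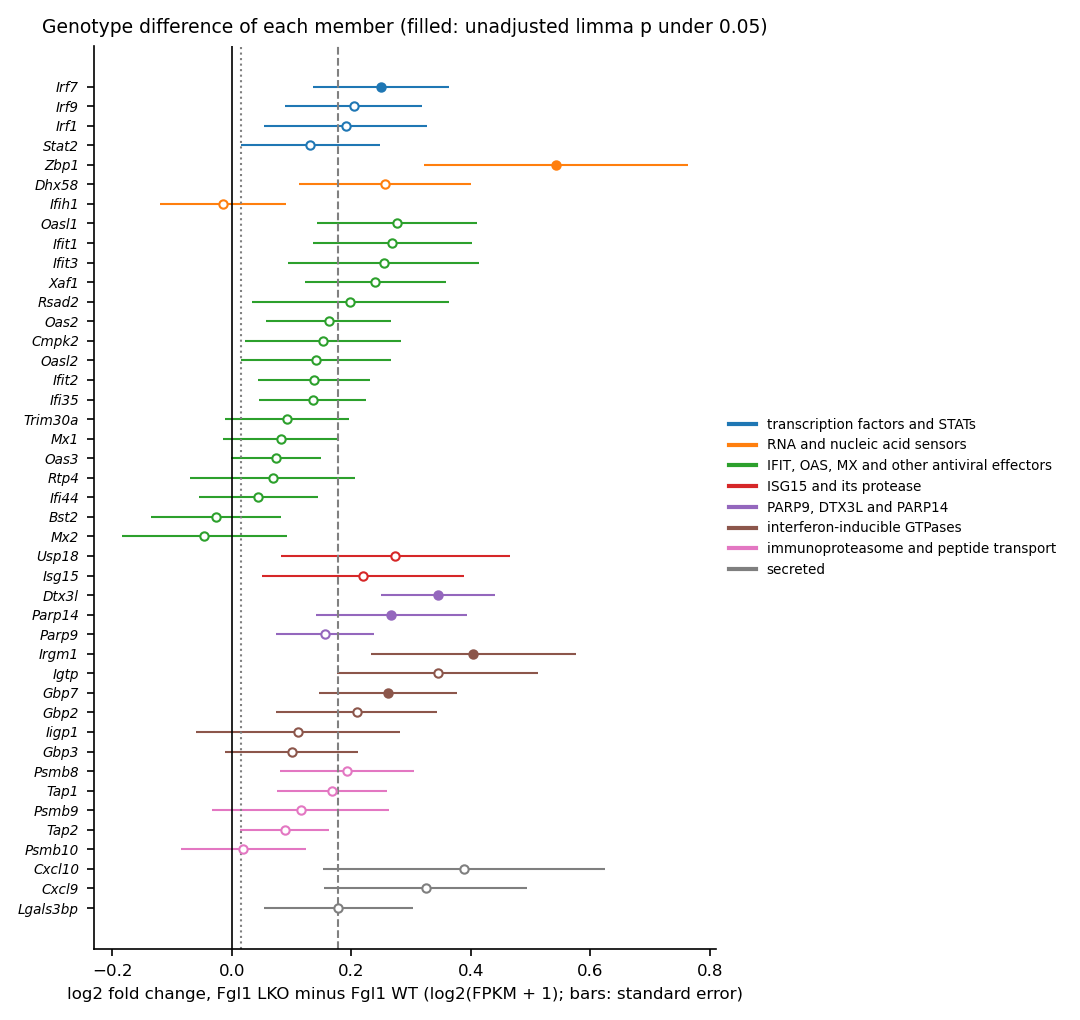
Log2 fold change (Fgl1 LKO minus Fgl1 WT, on log2(FPKM + 1)) of each of the 43 members, coloured by role, with bars for the standard error; filled points have an unadjusted limma p under 0.05. The dashed line is the median over the members (0.18) and the dotted line the median over all genes tested (0.01); 40 points lie right of 0.

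The count of 6 depended on single mice. Without Fgl1 LKO replicate 8 it was 1, and without Fgl1 WT replicate 8 it was also 1, with Dtx3l as the member left in each case. That is 2.33% of the members, below the 4.89% and 5.33% of all genes in these fits. It was 2 without Fgl1 LKO replicate 7, 2 without Fgl1 WT replicate 3, 3 without Fgl1 LKO replicate 1 and 3 without Fgl1 WT replicate 1, at 4.65% to 6.98% of the members beside 5.27% to 6.05% of all genes. It was larger without the Fgl1 WT mice in which many members were high, at 15 without replicate 4 and 14 without replicate 6, and it was 13 without Fgl1 LKO replicate 4, in which many members were low, beside 7.27%, 7.204% and 7.99% of all genes. The scaling moved the direction of the calls over all genes: 593 genes were higher and 302 lower with the values as deposited, 467 and 519 after median-ratio scaling, and 412 and 593 after quantile normalization. After either scaling the log2 fold change was still above 0 in 40 members, with medians of 0.16 and 0.16, and 4 members, or 9.30%, had an unadjusted p under 0.05, all higher, beside 7.72% and 7.87% of all genes.

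Mice of the same genotype differed widely. Each member's log2(FPKM + 1) was taken as a difference from its mean over the 16 mice, and the median of these differences over the 43 members was used to describe a mouse. It lay between -0.27 and 0.10 in the Fgl1 WT mice, with a median of -0.14, and between -0.16 and 0.37 in the Fgl1 LKO mice, with a median of 0.02. Fgl1 LKO replicates 8, 1 and 7 were highest, at 0.37, 0.28 and 0.28, and Fgl1 WT replicates 3, 8, 1 and 2 lowest, at -0.27, -0.22, -0.19 and -0.18. The other 9 mice of the genotypes were interspersed, from -0.16 in Fgl1 LKO replicate 4 to 0.10 in Fgl1 WT replicate 4.

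Fgl1 LKO replicate 8 held the highest value of the 16 mice in 25 members, or 58.1%, while it held the highest value in 12.7% of all genes tested. No other mouse held more than 5, the number for Fgl1 WT replicate 4. The lowest value of a member was most often found in Fgl1 WT replicates 3 and 8, with 9 members each. For replicate 8 this share of 20.9% resembled its share over all genes, 20.6%, and for replicate 3 the share over all genes was 4.21%. Fgl1 LKO replicate 8 held the lowest value in 0 members and in 17.7% of all genes. In Fgl1 LKO replicate 1, 43 of 43 members were above their mean, against 41 in replicate 7 and 40 in replicate 8.

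**Figure D2:**
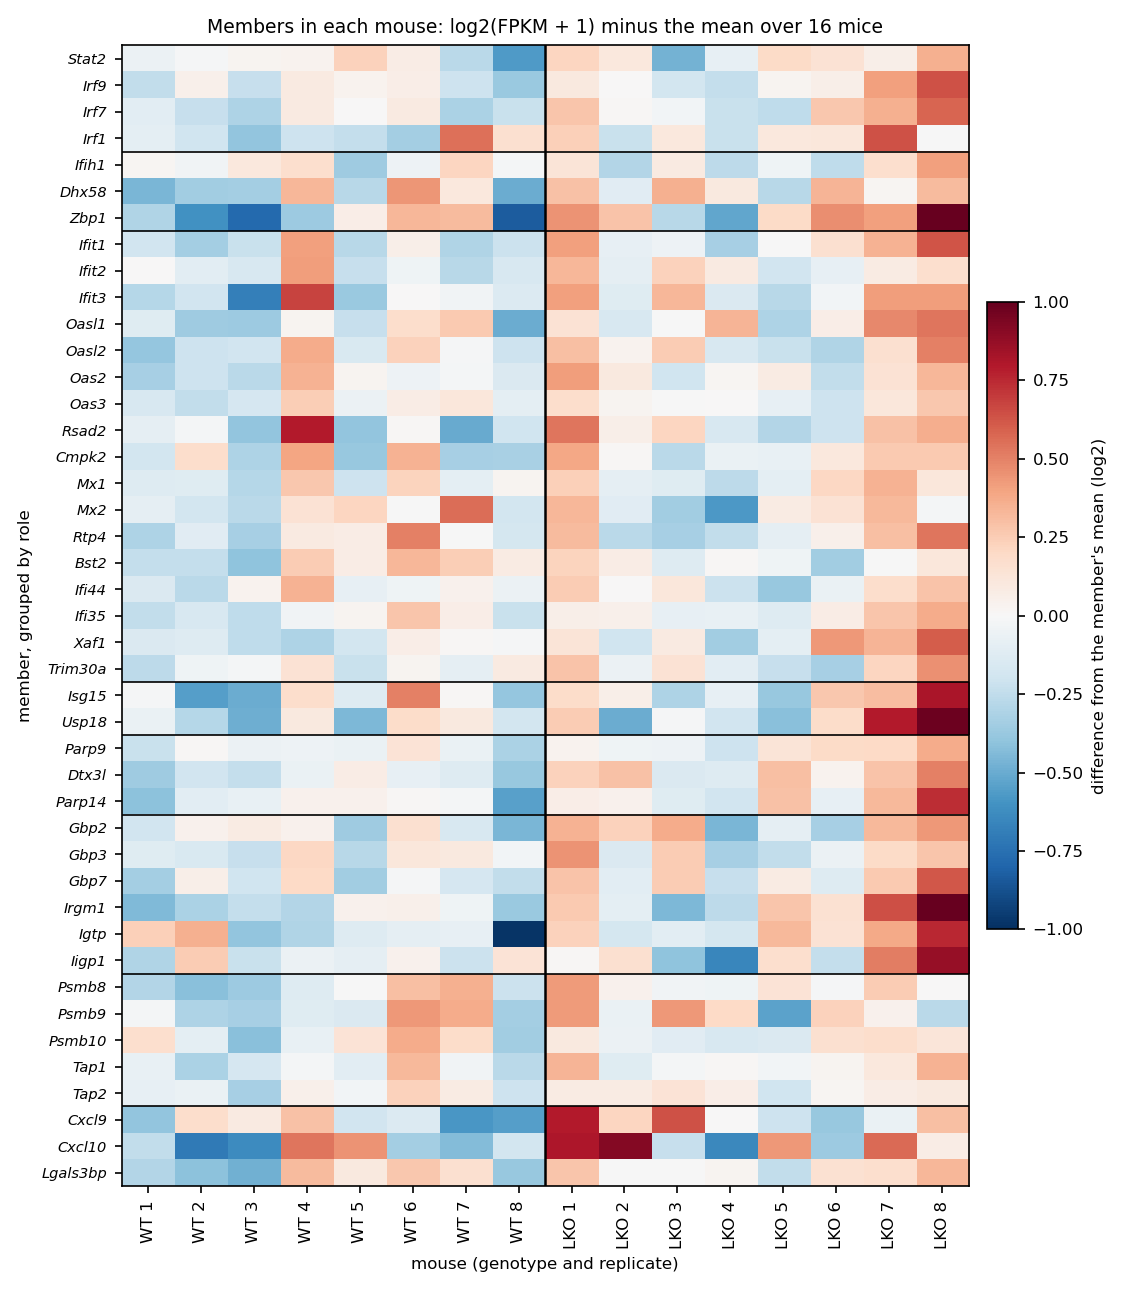
Log2(FPKM + 1) of each member minus its mean over the 16 mice, with mice in columns and members in rows grouped by role; colour runs from 1 below (blue) to 1 above the mean (red). Fgl1 LKO replicates 1, 7 and 8 are red in most rows and Fgl1 WT replicates 1, 2, 3 and 8 blue in most rows.

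The genotype difference did not hold within each run of mouse numbers. In the run 48 to 55, with 3 Fgl1 LKO mice and 1 Fgl1 WT mouse, the median over members of the difference in mean log2(FPKM + 1) was -0.05, with 15 of 43 members above 0. In the run 60 to 64, with 3 and 2 mice, it was -0.10, with 12 members above 0. In the run 69 to 72, with 2 and 2 mice, it was 0.48, with 39 members above 0. The medians over all genes in these runs were -0.0027, 0.01 and 0.05. The run 36 to 38 gives no difference, as its 3 mice are Fgl1 WT, and these were among the 4 lowest mice by the median over the members. In the fit with the run as a term, the median over the members was 0.10. A log2 fold change above 0 was found in 33 members, beside 58.0% of all genes. In that fit 5 members had an unadjusted p under 0.05, Dtx3l, Xaf1, Irgm1 and Igtp higher and Bst2 lower. That is 11.6% beside 8.08% of all genes. The runs of 4 or 5 mice were not tested one by one, and for the run 36 to 38 run and genotype cannot be told apart.

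**Figure D3:**
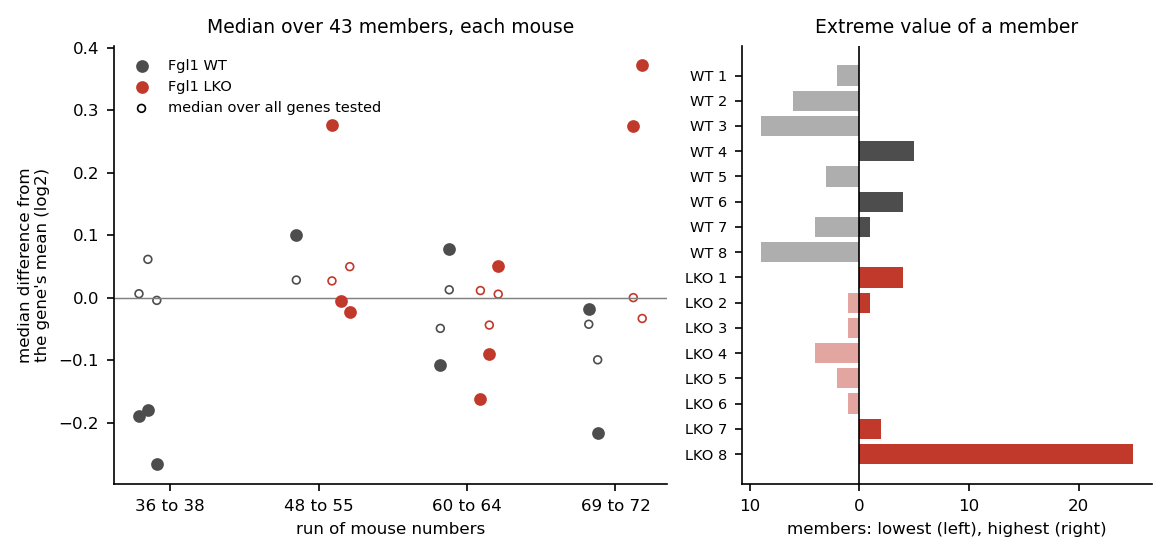
Left, the median over the 43 members of each mouse's difference from the members' means (log2), by run of mouse numbers, for Fgl1 WT (grey) and Fgl1 LKO (red), with open circles for the median over all genes tested; right, the number of members for which each mouse held the lowest or highest value. The run 69 to 72 holds the widest separation between genotypes and Fgl1 LKO replicate 8 holds 25 of the highest values.

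Of the Kupffer cell markers, all 6 of 6, Clec4f, Adgre1, Vsig4, Timd4, Cd5l and Marco, had a log2 fold change above 0. Such a sign was found in 55.8% of all genes tested. No marker was at 0 in any mouse, and Cd5l was the most abundant at a mean of 39.02 FPKM. Adgre1 and Vsig4 had an unadjusted limma p under 0.05, at log2 fold changes of 0.38 and 0.37, and 0 markers an adjusted one. These 2 are 33.3% of the list, beside 7.01% of all genes tested. With the run as a term, 4 of 6 were above 0, beside 58.0% of all genes. In that fit 0 had an unadjusted p under 0.05, beside 8.08% of all genes. Summed over the list, Fgl1 WT replicates 1 to 8 had 68.7, 52.5, 63.7, 107, 91.5, 77.5, 112 and 96.2 FPKM, and Fgl1 LKO replicates 1 to 8 had 114, 81.0, 121, 88.3, 74.1, 65.5, 109 and 140.5 FPKM. The highest sum was that of Fgl1 LKO replicate 8, the mouse with most of the members' highest values, and the 3 lowest of the Fgl1 WT mice were those of the run 36 to 38. Other mice did not follow this order: Fgl1 LKO replicate 3 had the next highest sum with a member median of -0.02, and Fgl1 LKO replicate 6 the lowest sum of its genotype with a member median of 0.05. Whether the markers and the members move together was not tested.

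The sums of the monocyte list, Ly6c2, Ccr2, Fn1, S100a4 and Itgam, were 332, 306, 298, 332, 337, 293, 368 and 211 FPKM in Fgl1 WT replicates 1 to 8 and 331, 325, 322, 291, 326, 376, 309 and 444 FPKM in Fgl1 LKO replicates 1 to 8. All 5 of 5 had a log2 fold change above 0, beside 55.8% of all genes tested. An unadjusted limma p under 0.05 was found for 0 of them, beside 7.01% of all genes. No gene of this list was at 0 in a mouse, and Fn1, which hepatocytes also make, supplied nearly all of the sum at a mean of 322 FPKM, so that the sums tell little of monocytes. Fn1 and Ccr2 were highest in Fgl1 LKO replicate 8, Ly6c2 in Fgl1 LKO replicate 7, and S100a4 and Itgam in Fgl1 WT replicate 5. The T and NK cell list, of which 9 of 10 genes were in the table, summed to 2.12 to 6.5 FPKM, with Ccl5 the most abundant at 2.31 FPKM and with Cd3e, Cd8a, Klrb1c and Ncr1 at 0 in at least 1 mouse. Gzmb of this list and Cd79b of the B cell list, both under 0.5 FPKM on average, had an unadjusted limma p under 0.05, at log2 fold changes of 0.13 and 0.27. That is 1 of 5 T and NK genes tested and 1 of 3 B cell genes, beside 7.01% of all genes. The plasmacytoid dendritic cell list holds the member Bst2 as its most abundant gene, while Klk1 and Cox6a2 were at 0 in at least 1 mouse. The lists for B cells, neutrophils, sinusoidal endothelial cells, stellate cells, cholangiocytes and the acute phase had their highest sums in other mice, Fgl1 LKO replicates 3 and 2 and Fgl1 WT replicates 5 and 7. All 4 of 4 cholangiocyte markers also had a log2 fold change above 0, with a median of 0.16 and 0 with an unadjusted limma p under 0.05. Of the hepatocyte markers, 2 of 7 were above 0, with a median of -0.11 and 0 with such a p. Above 0 were also 4 of 6 sinusoidal endothelial, 3 of 5 stellate and 4 of 5 acute phase genes. Of the genes tested, so were 2 of 5 plasmacytoid dendritic, 3 of 5 T and NK, 2 of 3 B cell and 2 of 3 neutrophil genes. Over all genes tested, 55.8% were above 0 and 7.01% had an unadjusted limma p under 0.05. The part of Kupffer cells, monocytes or any other cell type in the members' differences was not tested.

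Promoters were read from RefSeq windows of 250 bases before to 50 after the start, on GRCm38.p6, for the 32 members that matched. Usp18, Oas2, Mx1, Mx2, Rtp4, Dhx58, Parp9, Parp14, Iigp1, Tap2 and Zbp1 are named only. GAAANNGAA, the core that interferon regulatory factors bind in the response element, was searched on both strands and found in 17 of 32 members, or 53.1%, beside 9.76% of 27025 genes with a window. At least 2 such matches, which may overlap, were in 8 members, and in 0.736% of all genes. TTCNNNGAA, the gamma-activated site, reads the same on both strands and was in 7 members, or 21.9%, beside 9.55% of all genes. Matches to the motifs may overlap each other, and either was in 21 members. The core was in 5 of 5 GTPase genes, 7 of 13 antiviral effectors and 0 of 4 immunoproteasome and transport genes.

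The windows of Ifit1, Isg15, Gbp7 and Psmb8 were picked from the members with a match, to show layouts from 3 cores to a single gamma-activated site, while 11 of the 32 members had neither motif. They lie at chr19:34640639-34640938 on the plus strand (Ifit1), chr4:156200769-156201068 on the minus strand (Isg15), chr3:142530086-142530385 on the plus strand (Gbp7) and chr17:34197945-34198244 on the plus strand (Psmb8), all on GRCm38.p6, and are printed 5′ to 3′ on the gene's strand with matches to either motif in capitals. Ifit1 and Isg15 hold 3 cores each, Gbp7 holds 1 core and 2 gamma-activated sites, and Psmb8 holds 1 gamma-activated site. A match is a run of letters and not a measured site.
Ifit1: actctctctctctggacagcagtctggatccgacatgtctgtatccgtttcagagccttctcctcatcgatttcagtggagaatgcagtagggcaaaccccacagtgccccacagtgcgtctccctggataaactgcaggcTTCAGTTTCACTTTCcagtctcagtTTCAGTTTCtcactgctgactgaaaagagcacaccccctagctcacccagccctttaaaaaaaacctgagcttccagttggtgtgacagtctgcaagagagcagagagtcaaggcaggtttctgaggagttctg
Isg15: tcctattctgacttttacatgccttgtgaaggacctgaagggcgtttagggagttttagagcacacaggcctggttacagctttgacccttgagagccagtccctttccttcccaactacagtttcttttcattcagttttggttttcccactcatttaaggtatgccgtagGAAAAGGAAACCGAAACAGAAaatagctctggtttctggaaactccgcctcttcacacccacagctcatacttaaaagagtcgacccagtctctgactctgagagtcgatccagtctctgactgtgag
Gbp7: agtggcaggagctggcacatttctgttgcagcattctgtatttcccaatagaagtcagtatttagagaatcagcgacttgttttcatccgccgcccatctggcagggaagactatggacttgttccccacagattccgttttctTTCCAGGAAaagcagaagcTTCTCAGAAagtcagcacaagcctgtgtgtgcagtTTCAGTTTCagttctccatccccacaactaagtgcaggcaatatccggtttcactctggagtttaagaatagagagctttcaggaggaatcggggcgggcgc
Psmb8: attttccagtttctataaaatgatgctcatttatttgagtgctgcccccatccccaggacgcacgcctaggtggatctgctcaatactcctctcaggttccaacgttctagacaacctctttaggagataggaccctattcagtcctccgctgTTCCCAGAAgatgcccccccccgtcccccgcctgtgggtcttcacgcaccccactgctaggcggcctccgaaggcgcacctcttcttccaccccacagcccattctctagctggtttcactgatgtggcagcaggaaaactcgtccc

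The transcription factors among the members are Stat2 and Irf9, which belong to the complex named above, and Irf7 and Irf1, which bind related elements and amplify the response. Irf7 lay between 17.2 and 23.2 FPKM in the Fgl1 WT mice, with a median of 19.3, and between 18.1 and 33.1 FPKM in the Fgl1 LKO mice, with a median of 24.2. Fgl1 LKO replicates 1, 6, 7 and 8 were above every Fgl1 WT mouse and the other 4 lay within the Fgl1 WT range. The log2 fold change of Irf7 was 0.25 (SE 0.11, limma adjusted p = 0.696), the exact permutation p was 0.057, and 6 of 8 Fgl1 LKO mice were above the Fgl1 WT median. Within the runs it was -0.0033, -0.11 and 0.74, in the order 48 to 55, 60 to 64 and 69 to 72. Stat2 lay between 11.5 and 20.8 FPKM in the Fgl1 WT mice, with a median of 17.7, and between 12.4 and 22.8 FPKM in the Fgl1 LKO mice, with a median of 19.2. Only Fgl1 LKO replicate 8 was above all Fgl1 WT mice, and the lowest Stat2 values were those of Fgl1 WT replicate 8 and Fgl1 LKO replicate 3. Stat2 had a log2 fold change of 0.13 (limma adjusted p = 0.795), with 6 of 8 Fgl1 LKO mice above the Fgl1 WT median, and it was -0.03 without the run 69 to 72. Irf9 and Irf1 had log2 fold changes of 0.20 and 0.19. Irf1 differed from the other 3 in its pattern, with its highest levels in Fgl1 LKO replicate 7, at 23.1 FPKM, and Fgl1 WT replicate 7, at 21.7 FPKM.

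The sensors are Ifih1 (MDA5) and Dhx58 (LGP2), which bind long double-stranded RNA, and Zbp1, which binds left-handed nucleic acid and can start cell death. Zbp1 had the largest log2 fold change and the largest spread of all members. Its level lay between 2.39 and 6.58 FPKM in the Fgl1 WT mice, with a median of 3.78, and between 3.19 and 12.5 FPKM in the Fgl1 LKO mice, with a median of 6.67. Fgl1 LKO replicate 8 stood far above the other mice at 12.5 FPKM, while Fgl1 LKO replicate 3 was near the Fgl1 WT median and replicate 4 below it, at 3.96 and 3.19 FPKM. Zbp1 had a log2 fold change of 0.54 (SE 0.22, limma adjusted p = 0.696), the exact permutation p was 0.0426, and 7 of 8 Fgl1 LKO mice were above the Fgl1 WT median. Within the runs it was 0.52, -0.15 and 1.05. Dhx58 lay between 3.72 and 8.05 FPKM in the Fgl1 WT mice, with a median of 4.38, and between 4.48 and 7.52 FPKM in the Fgl1 LKO mice, with a median of 6.63. The Fgl1 WT mice fell apart, with replicates 4, 6 and 7 above 6 FPKM and the other 5 at 4.5 FPKM or lower, and the highest value was that of Fgl1 WT replicate 6. At a log2 fold change of 0.26, Dhx58 did not pass the adjusted threshold (limma adjusted p = 0.709), with all 8 Fgl1 LKO mice above the Fgl1 WT median. It was at 0.07 with the run as a term, and within the runs at -0.15, -0.03 and 0.36. Ifih1 lay between 4.66 and 7.42 FPKM in the Fgl1 WT mice, with a median of 6.25, and between 4.9 and 8.6 FPKM in the Fgl1 LKO mice, with a median of 6.38. The genotypes covered nearly the same range, and the log2 fold change of Ifih1 was -0.01 (limma adjusted p = 0.979), with 4 of 8 Fgl1 LKO mice below the Fgl1 WT median.

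The 17 antiviral effectors are the largest role, and 15 of them had a log2 fold change above 0, with a median of 0.14 and a range of -0.05 to 0.28. Of these 17, 0 had an unadjusted limma p under 0.05, beside 7.01% of all genes. The count ran from 0 to 6 when single mice were left out. It was 6 without Fgl1 WT replicate 4, beside 7.27% of all genes. With a replicate block it was 2, and with the run as a term 2, beside 7.24% and 8.08% of all genes. With the run as a term 10 of 17 were above 0, beside 58.0% of all genes, with a median of 0.06 over the 17. Bst2, which tethers budding virus to the cell, was the most abundant member. It lay between 139 and 232 FPKM in the Fgl1 WT mice, with a median of 195, and between 145 and 216 FPKM in the Fgl1 LKO mice, with a median of 185. Both extremes were in Fgl1 WT mice, replicate 6 at the top and replicate 3 at the bottom, and the Fgl1 LKO mice lay wholly within them. Between genotypes Bst2 differed by a log2 fold change of -0.03 (limma adjusted p = 0.964), with 6 of 8 Fgl1 LKO mice below the Fgl1 WT median, and within the runs it was -0.19, -0.33 and -0.11. Ifi35, a regulator of innate signalling, lay between 14.7 and 21.7 FPKM in the Fgl1 WT mice, with a median of 16.5, and between 16.1 and 23.2 FPKM in the Fgl1 LKO mice, with a median of 18.4. Fgl1 LKO replicate 8 alone was above all Fgl1 WT mice, and Fgl1 WT replicates 1, 2, 3 and 8 were below all Fgl1 LKO mice. Ifi35 had a log2 fold change of 0.14 (limma adjusted p = 0.736), with 7 of 8 Fgl1 LKO mice above the Fgl1 WT median.

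The other effectors were at lower levels. The IFIT proteins bind foreign RNA ends, and Ifit1, Ifit2 and Ifit3 had log2 fold changes of 0.27, 0.14 and 0.25. Ifit2 and Ifit3 were highest not in an Fgl1 LKO mouse but in Fgl1 WT replicate 4, at 1.40 and 12.0 FPKM, as was Rsad2, which encodes viperin, at 4.90 FPKM. In the OAS family some proteins make the second messenger that activates RNase L, and some tune RNA sensing. Oas2, Oas3, Oasl1 and Oasl2 had log2 fold changes of 0.16, 0.07, 0.28 and 0.14. The genes of the MX GTPases had 0.08 for Mx1 and -0.05 for Mx2, and Mx2 was highest in Fgl1 WT replicate 7. Cmpk2, a mitochondrial nucleotide kinase beside Rsad2, had 0.15, and the chaperone Rtp4 0.07. Ifi44 had 0.04, Trim30a, a ubiquitin ligase, 0.09, and Xaf1, a factor in apoptosis, 0.24. Xaf1 was above every Fgl1 WT mouse in 5 of 8 Fgl1 LKO mice and lowest of all in Fgl1 LKO replicate 4.

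Isg15 encodes a ubiquitin-like protein that is joined to other proteins, and Usp18 the protease that removes it and also dampens the type I interferon receptor. Isg15 lay between 12.4 and 26.8 FPKM in the Fgl1 WT mice, with a median of 17.7, and between 14.1 and 33.5 FPKM in the Fgl1 LKO mice, with a median of 20.4. The highest value was that of Fgl1 LKO replicate 8 and the next that of Fgl1 WT replicate 6, and the groups overlapped over most of their range. Isg15 had a log2 fold change of 0.22 (limma adjusted p = 0.777), with 5 of 8 Fgl1 LKO mice above the Fgl1 WT median, and within the runs it was -0.20, -0.25 and 0.75. Usp18 lay between 3.25 and 5.79 FPKM in the Fgl1 WT mice, with a median of 4.47, and between 3.24 and 10.8 FPKM in the Fgl1 LKO mice, with a median of 5.34. Fgl1 LKO replicates 7 and 8 stood apart at 9.36 and 10.8 FPKM, and Fgl1 LKO replicates 2 and 5 were with the lowest Fgl1 WT mice. At a log2 fold change of 0.27, Usp18 did not pass the adjusted threshold (limma adjusted p = 0.755), with 5 of 8 Fgl1 LKO mice above the Fgl1 WT median.

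Parp9 and Dtx3l encode partners in a complex that joins ADP-ribose to ubiquitin and works in interferon signalling and DNA repair, and Parp14 encodes a related mono-ADP-ribosyltransferase. Dtx3l lay between 6.99 and 9.94 FPKM in the Fgl1 WT mice, with a median of 8.29, and between 8.41 and 13.8 FPKM in the Fgl1 LKO mice, with a median of 11.4. Fgl1 LKO replicates 1, 2, 5, 7 and 8 were above every Fgl1 WT mouse, while replicates 3, 4 and 6 lay within the Fgl1 WT range. The mean of Dtx3l was 8.27 ± 0.987 FPKM (SD, n = 8) without Cre and 10.8 ± 1.84 FPKM (SD, n = 8) with it. The log2 fold change of Dtx3l was 0.34 (SE 0.10, limma adjusted p = 0.685), the unadjusted limma p was 0.00204 and the exact permutation p 0.00466. It was above 0 in each run, at 0.19, 0.07 and 0.65, and Dtx3l was the member whose unadjusted p stayed under 0.05 whichever mouse was left out. Parp9 lay between 12.4 and 17.4 FPKM in the Fgl1 WT mice, with a median of 15.0, and between 13.5 and 20.7 FPKM in the Fgl1 LKO mice, with a median of 16.7. Fgl1 LKO replicates 6, 7 and 8 were above all Fgl1 WT mice, and the log2 fold change of 0.16 (limma adjusted p = 0.7) came with 7 of 8 Fgl1 LKO mice above the Fgl1 WT median. Parp14 lay between 4.41 and 7.13 FPKM in the Fgl1 WT mice, with a median of 6.63, and between 5.92 and 12.2 FPKM in the Fgl1 LKO mice, with a median of 7.18. Fgl1 LKO replicate 8 was highest by a wide gap and Fgl1 WT replicates 8 and 1 were lowest. Parp14 had a log2 fold change of 0.27 (SE 0.13, limma adjusted p = 0.696), the exact permutation p was 0.0637, with 5 of 8 Fgl1 LKO mice above the Fgl1 WT median, and within the runs it was -0.05, -0.02 and 0.81.

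The interferon-inducible GTPases coat vacuoles that hold parasites or bacteria, Gbp2, Gbp3 and Gbp7 as guanylate-binding proteins and Irgm1, Igtp and Iigp1 as immunity-related GTPases, of which Irgm1 and Igtp hold effectors such as Iigp1 in check. All 6 had a log2 fold change above 0, with a median of 0.23, and all 6 did so with the run as a term, but 5 without the run 69 to 72, when the median was 0.08, and 5 without Fgl1 LKO replicate 8. Of the 6, 2 had an unadjusted limma p under 0.05, or 33.3%, beside 7.01% of all genes. The count was 0 to 4 when single mice were left out, beside 4.89% to 9.66% of all genes. Irgm1 lay between 24.8 and 35.4 FPKM in the Fgl1 WT mice, with a median of 28.2, and between 24.8 and 73.6 FPKM in the Fgl1 LKO mice, with a median of 39.6. Fgl1 LKO replicates 8 and 7 were highest, at 73.6 and 53.9 FPKM, and Fgl1 LKO replicate 3 was the lowest of the 16 mice. The log2 fold change of Irgm1 was 0.40 (SE 0.17, limma adjusted p = 0.696), the exact permutation p was 0.0423, and 7 of 8 Fgl1 LKO mice were above the Fgl1 WT median. Within the runs it was 0.20, 0.0094 and 1.07. Gbp7 lay between 1.30 and 2.36 FPKM in the Fgl1 WT mice, with a median of 1.57, and between 1.49 and 3.50 FPKM in the Fgl1 LKO mice, with a median of 2.29. Fgl1 LKO replicates 1, 3, 7 and 8 were above every Fgl1 WT mouse and replicate 4 was among the lowest. Gbp7 had a log2 fold change of 0.26 (SE 0.11, limma adjusted p = 0.696), the exact permutation p was 0.0482, with 7 of 8 Fgl1 LKO mice above the Fgl1 WT median, and within the runs it was -0.05, 0.08 and 0.65.

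Igtp lay between 6.78 and 18.6 FPKM in the Fgl1 WT mice, with a median of 13.2, and between 12.6 and 24.8 FPKM in the Fgl1 LKO mice, with a median of 16.5. Fgl1 WT replicate 8 was lowest and Fgl1 LKO replicate 8 highest, and Fgl1 WT replicates 1 and 2 were among the higher mice. Between genotypes Igtp differed by a log2 fold change of 0.34 (limma adjusted p = 0.696), with 6 of 8 Fgl1 LKO mice above the Fgl1 WT median, and within the runs it was 0.28, 0.21 and 1.10. Iigp1 was the most abundant GTPase, between 76.3 and 113 FPKM in the Fgl1 WT mice, with a median of 89.6, and between 59.6 and 174 FPKM in the Fgl1 LKO mice, with a median of 100.3. The 2 highest and the 2 lowest mice were all Fgl1 LKO mice, so this group was the wider on either side. Iigp1 had a log2 fold change of 0.11 (limma adjusted p = 0.89), with 5 of 8 Fgl1 LKO mice above the Fgl1 WT median, and it was -0.0067 without Fgl1 LKO replicate 8. Gbp2 and Gbp3, at 1.49 and 1.93 FPKM on average, had log2 fold changes of 0.21 and 0.10.

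**Figure D4:**
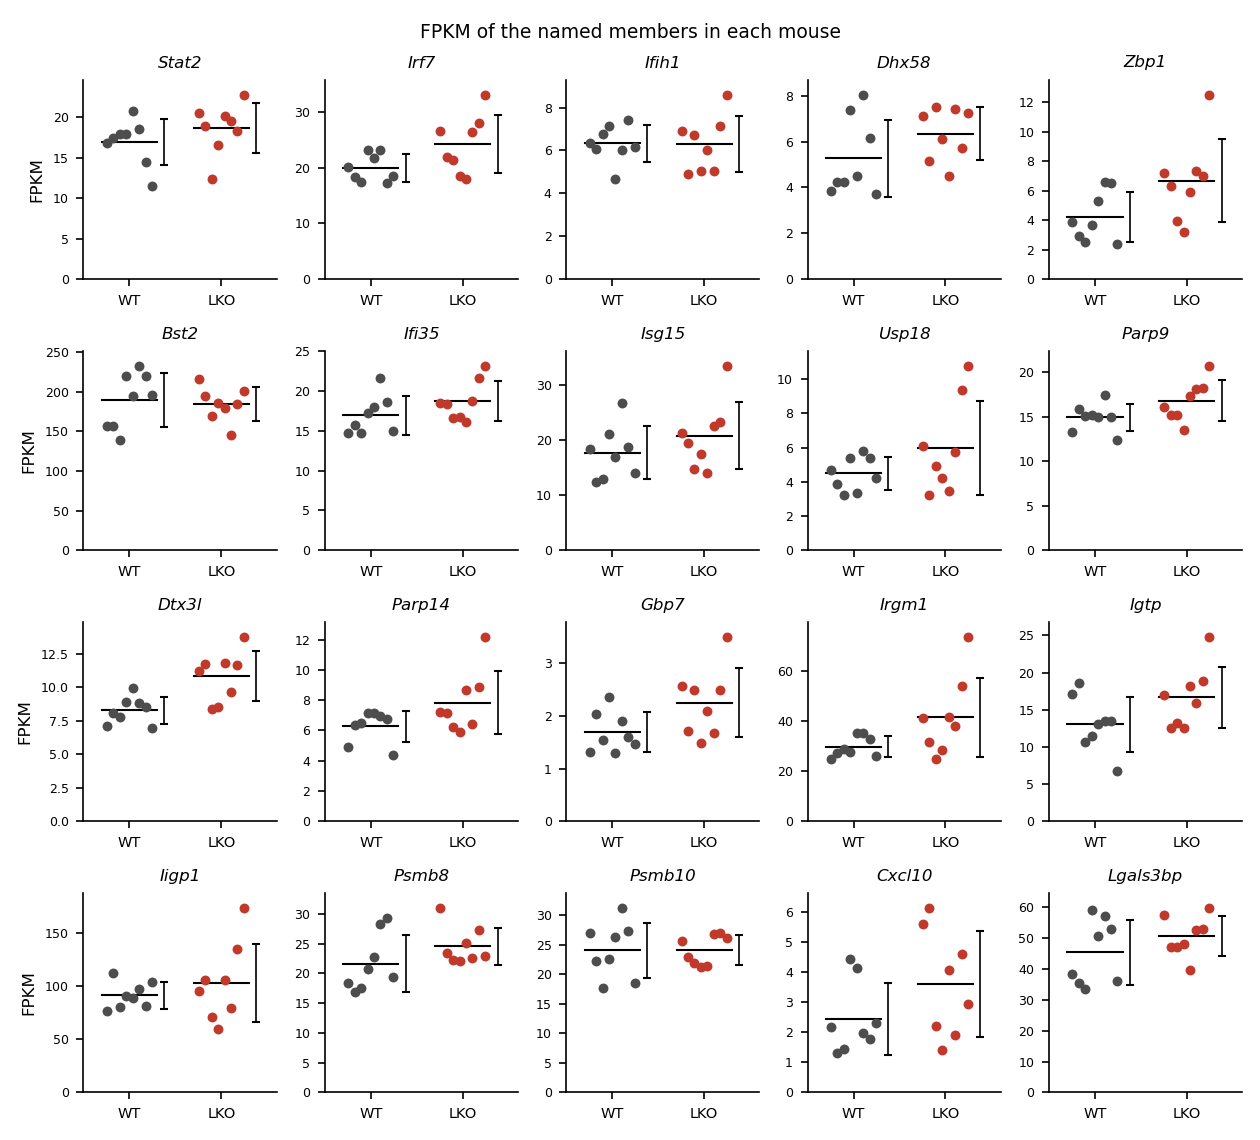
FPKM of 20 members in each Fgl1 WT (grey) and Fgl1 LKO (red) mouse, with a line for the mean and a bar for the SD (n = 8) to the right; replicates run from 1 to 8 from left to right. The ranges of the genotypes overlap in each panel, and Fgl1 LKO replicate 8 is the highest point for Dtx3l, Zbp1, Irgm1, Gbp7, Irf7 and Parp14.

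Psmb8, Psmb9 and Psmb10 encode the inducible catalytic subunits of the immunoproteasome, which replace Psmb5, Psmb6 and Psmb7, and Tap1 and Tap2 form the transporter that brings its peptides to MHC class I. All 5 had a log2 fold change above 0, with a median of 0.12, a count that was 3 with the run as a term, when the median was 0.0049. With single mice left out the median ran from 0.08 to 0.19. The members with an unadjusted limma p under 0.05 ran from 0 to 2, the 2 without Fgl1 WT replicate 6, beside 7.204% of all genes. Psmb8 lay between 16.8 and 29.4 FPKM in the Fgl1 WT mice, with a median of 20.1, and between 22.1 and 31.0 FPKM in the Fgl1 LKO mice, with a median of 23.2. Fgl1 LKO replicate 1 and Fgl1 WT replicates 7 and 6 were highest, and 5 Fgl1 WT mice were below all Fgl1 LKO mice. Psmb8 had a log2 fold change of 0.19 (limma adjusted p = 0.713), with all 8 Fgl1 LKO mice above the Fgl1 WT median, and within the runs it was 0.28, -0.12 and 0.06. Psmb10 lay between 17.6 and 31.2 FPKM in the Fgl1 WT mice, with a median of 24.5, and between 21.2 and 27.1 FPKM in the Fgl1 LKO mice, with a median of 24.3. The Fgl1 LKO mice lay within the Fgl1 WT range, and the log2 fold change of 0.02 (limma adjusted p = 0.973) came with 4 of 8 Fgl1 LKO mice above the Fgl1 WT median and fell to -0.03 with the run as a term. Psmb9, Tap1 and Tap2 had log2 fold changes of 0.12, 0.17 and 0.09. Fgl1 LKO replicate 8, highest in most members, was not high in Psmb8 or Psmb9, at 22.9 and 14.5 FPKM.

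Because FPKM is scaled to length, each inducible subunit could be set beside the constitutive one that it replaces. Psmb8 was at 13.97% to 25.3% of the level of Psmb5 in the Fgl1 WT mice, with a median of 17.97%, and at 16.4% to 25.2% in the Fgl1 LKO mice, with a median of 20.3%. For Psmb9 the share of Psmb6 was 14.04% to 23.4%, with a median of 15.6%, in the Fgl1 WT mice and 13.05% to 25.2%, with a median of 17.4%, in the Fgl1 LKO mice. For Psmb10 the share of Psmb7 was 11.5% to 19.6%, with a median of 16.4%, and 14.6% to 18.4%, with a median of 16.7%. In each pair the constitutive subunit was the more abundant in every mouse, and the genotypes overlapped.

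The secreted members are the chemokines Cxcl9 and Cxcl10, which draw T and NK cells, and Lgals3bp, a galectin-binding glycoprotein. Lgals3bp lay between 33.7 and 59.2 FPKM in the Fgl1 WT mice, with a median of 44.6, and between 39.8 and 59.8 FPKM in the Fgl1 LKO mice, with a median of 50.5. Fgl1 WT replicates 1, 2, 3 and 8 were below all Fgl1 LKO mice and the other 4 lay among them, so that the Fgl1 WT mice were split. At a log2 fold change of 0.18, Lgals3bp did not pass the adjusted threshold (limma adjusted p = 0.755), with 7 of 8 Fgl1 LKO mice above the Fgl1 WT median, and it was -0.02 with the run as a term. Cxcl10 lay between 1.31 and 4.44 FPKM in the Fgl1 WT mice, with a median of 2.07, and between 1.40 and 6.12 FPKM in the Fgl1 LKO mice, with a median of 3.51. Fgl1 LKO replicates 2 and 1 were highest, and Fgl1 LKO replicate 4 was with the lowest Fgl1 WT mice. Between genotypes Cxcl10 differed by a log2 fold change of 0.39 (limma adjusted p = 0.718), with 6 of 8 Fgl1 LKO mice above the Fgl1 WT median, a difference of 0.10 with the run as a term and of -0.03, -0.25 and 0.63 within the runs. Cxcl9 had a log2 fold change of 0.32 and was highest in Fgl1 LKO replicate 1, at 5.15 FPKM.

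Of the pathway around the members, the ligands were near the limit of the table. Of 21 interferon genes, 5 were in it and 0 passed the filter, with Ifnab, Ifnb1 and Ifnk at 0 in every mouse and Ifng at 0.12 FPKM at most, in Fgl1 WT replicate 8. Of 14 genes for receptors and JAK-STAT signalling, 13 were tested, and 10 had a log2 fold change above 0, beside 55.8% of all genes. The kinase gene Jak1 was the 1 with an unadjusted limma p under 0.05, and 0 passed the adjusted threshold. Jak1 lay between 17.8 and 23.0 FPKM in the Fgl1 WT mice, with a median of 21.0, and between 20.8 and 32.4 FPKM in the Fgl1 LKO mice, with a median of 22.9. Its 2 highest values were those of Fgl1 LKO replicates 8 and 7, and its log2 fold change was 0.20 (limma adjusted p = 0.696), with 7 of 8 Fgl1 LKO mice above the Fgl1 WT median. Over 27 alternative fits, which reuse the same mice, it ran from 0.05 to 0.24, with an unadjusted p under 0.05 in 22. Jak1 was named for its p in the main fit. The count for the list ran from 0 to 3 in these fits, beside 3.84% to 9.66% of all genes. The receptor gene Ifnar2 and Stat3 had log2 fold changes of -0.10 and 0.28.

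Of 20 upstream sensors, adaptors and IRFs, 17 were tested, and 16 had a log2 fold change above 0, beside 55.8% of all genes. An unadjusted limma p under 0.05 was found for 2, Trim25 and Ticam1, and an adjusted one for 0. The count of 2 was 2 to 5 when single mice were left out, beside 4.89% to 9.66% of all genes. It was 1 with the run as a term, beside 8.08% of all genes. In that fit 12 of 17 were above 0, beside 58.0% of all genes. Trim25, a ubiquitin ligase that activates RIG-I, lay between 12.6 and 19.9 FPKM in the Fgl1 WT mice, with a median of 16.8, and between 18.6 and 29.8 FPKM in the Fgl1 LKO mice, with a median of 21.8. Only Fgl1 WT replicate 2 was above any Fgl1 LKO mouse. The unadjusted p of Trim25 was under 0.05 in 27 of 27 alternative fits, which reuse the same mice and are no replication. Trim25 had a log2 fold change of 0.40 (limma adjusted p = 0.612), with all 8 Fgl1 LKO mice above the Fgl1 WT median. Ticam1 (TRIF), the adaptor of TLR3 and TLR4, had a log2 fold change of 0.37 (limma adjusted p = 0.696), with all 8 Fgl1 LKO mice above the Fgl1 WT median. Mavs and Irf3, abundant in this list, had log2 fold changes of 0.17 and -0.05.

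Of 67 other interferon-stimulated genes, 65 were tested, 54 had a log2 fold change above 0, with a median of 0.10, and 4 an unadjusted limma p under 0.05, Rnf213, Trim21, Adar and Eif2ak2, all higher in the Fgl1 LKO mice, with 0 past the adjusted threshold. These 4 are 6.15% of the list, below the 7.01% of all genes tested. A log2 fold change above 0 was found in 55.8% of all genes tested. The share was 7.69% in the list of receptors and JAK-STAT signalling and 11.8% in that of upstream sensors, adaptors and IRFs. With the run as a term 39 of 65 were above 0, beside 58.0% of all genes. The count of 4 was 2 to 11 when single mice were left out, beside 4.89% to 9.66% of all genes. It was 1 with a replicate block, beside 7.24% of all genes. Over 27 alternative fits the unadjusted p was under 0.05 in 25 for Rnf213, 26 for Trim21, 19 for Adar and 18 for Eif2ak2. The 4 were named for this p in the main fit, and these fits reuse the same mice. Rnf213, a large ubiquitin ligase, and Trim21, an antibody receptor inside cells, had log2 fold changes of 0.32 and 0.24, and the genes of the RNA editor Adar and the RNA-activated kinase Eif2ak2 had both 0.24. The most abundant genes of that list were Ifitm3, Ifitm2 and Psme2, with log2 fold changes of 0.13, -0.05 and 0.03, each with the opposite sign in 2 or 3 of 27 alternative fits. Of 19 genes for the constitutive proteasome core and its assembly, 10 had a log2 fold change above 0, with a median of 0.01, which was -0.01 after median-ratio scaling with 8 above 0. Among them 1, Psma7, had an unadjusted limma p under 0.05, or 5.26%, at a log2 fold change of 0.20, and 0 an adjusted one. Pomp, Psmb4 and Psmb7, the most abundant, had log2 fold changes of 0.06, 0.10 and -0.08.

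In the GENCODE annotation of GRCm39, the 43 members lie on 15 chromosomes, and 25 of them lie in 10 clusters with at most 1000 kb between neighbours. The cluster of chromosome 17, from 34400960 to 34435829, holds Psmb9, Tap1, Psmb8 and Tap2. As annotated, Psmb9 and Tap1 overlap on opposite strands, with start sites 742 bases apart. On chromosome 16, Parp14, Dtx3l and Parp9 lie from 35653231 to 35792980. Parp9 and Dtx3l also overlap on opposite strands, with start sites 681 bases apart. The other clusters are Ifit2, Ifit3 and Ifit1 on chromosome 19, Gbp7, Gbp3 and Gbp2 on chromosome 3, Rsad2 and Cmpk2 on chromosome 12, Mx1 and Mx2 on chromosome 16, Dhx58 and Ifi35 on chromosome 11, and Cxcl9 and Cxcl10, Oasl2 and Oasl1, and Oas2 and Oas3 on chromosome 5.

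Some members share stretches of transcript with other genes, so that reads could have been counted for either. Of 42 members with a coding transcript in the annotation, 35 shared no stretch of 100 bases with another gene. Ifit3 shared 19.0% of its stretches, with Ifit3b, Trim30a 15.9% and Irf9 8.16%, and Igtp shared 4.12% with Irgm2. Ifit1, Gbp3 and Gbp7 shared 1.15% or less.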

How the data were processed

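Liver RNA sequencing of 16 mice, 1 library each, was analysed from the deposited table of FPKM, which the authors made after alignment with HISAT to mm39 and with Bowtie2 to reference genes, versions not stated, with values rounded to 2 decimals. FPKM are not counts, so log2(FPKM + 1) was taken, and genotypes, as labelled, were compared with limma 3.58.1 in R 4.3.3 by two-sided moderated tests (lmFit, eBayes with a trend) over the 12770 genes that averaged 0.1 FPKM or more, with Benjamini-Hochberg adjustment over all of them and a threshold of 0.05. Single genes were compared by exact permutation over all 12870 splits, whose smallest two-sided p is 0.000155. The other steps ran in Python 3.11.15 (numpy 2.4.6; scipy 1.17.1; pandas 2.3.3), and the tests were tested on simulated data.

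Reads per library are not known, and no counting error is given. Relative depth was estimated from 131 genes with low values, taking the lowest for single reads. No samples had identical values. Positions and transcripts came from GENCODE vM39, and promoters from RefSeq on GRCm38.p6, not converted.

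The members and all lists were chosen with earlier results of these data known. Values by mouse are given, in each role, for the 2 members with the highest mean FPKM, any with an unadjusted p under 0.05, and the 5 members with the largest SD of log2(FPKM + 1). 1 gene of the lists and the correlation planned with it are not reported here. Of the other pathway lists, genes with such a p and the 3 with the highest mean are named. Genes named beyond these were chosen after their values were seen. Alternatives were other pseudocounts (0.1, 0.01), no filter or a mean of at least 1 FPKM, median-ratio scaling, quantile normalization, a robust eBayes step, pairing by replicate number (a replicate block), a term for the run, omission of the run 36 to 38 or of single mice, and an exact rank-sum test. Protein sequences were not used here.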

Additional observations from a re-analysis of the deposited data

Results flagged for a closer look

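In 86 groups of 8 mice (the members, each within a genotype), the extreme mouse's gap to the next mouse was divided by the group's range, both on log2(FPKM + 1). A gap beyond the 95% limit of Dixon's test was found in 5 groups, where chance gives about 1 in 20 groups, or 4.3. Ifit2 and Rsad2 were highest in Fgl1 WT replicate 4, with 1.40 FPKM against 0.80 in the next mouse (0.595 of the range) and 4.90 against 2.42 FPKM (0.606). Ifih1 was lowest in Fgl1 WT replicate 5, with 4.66 against 6.00 FPKM (0.535). Tap1 was highest in Fgl1 WT replicate 6, with 12.5 against 9.60 FPKM (0.541). Tap2 was lowest in Fgl1 LKO replicate 5, with 10.4 against 12.3 FPKM (0.657). None of these was in Fgl1 LKO replicate 8, the mouse with most of the members' highest values.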

How the results depend on the processing

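The members with an adjusted limma p under 0.05 numbered 0 in each of 27 alternative fits, where the count at an unadjusted p under 0.05 ran from 1 to 15, and 0 by the exact rank-sum test, where it was 5. The median log2 fold change over the members was above 0 in each, from 0.07 without the run 69 to 72, an alternative chosen after seeing the data, to 0.23 with a pseudocount of 0.01. The count of 6 members at an unadjusted p under 0.05 was 3 without the run 36 to 38 (6.98% of the members beside 6.36% of all genes) and 2 without the run 69 to 72 (4.65% beside 3.84%). Of the original 6, only Dtx3l was among these 3 and these 2. The others were Igtp, higher, and Bst2, lower, without the run 36 to 38, and Irf1, higher, without the run 69 to 72. The count was 1 to 15 when single mice were left out (beside 4.89% to 9.66% of all genes), with the single mice named in the report. Fewer mice were compared in these fits, and the cause was not tested further.

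With a replicate block, which pairs mice of equal replicate number, the count was 6 (13.95% of the members beside 7.24% of all genes), of which 3 were among the original 6. The labels do not say that these numbers pair mice. The correlation of genes' deviations within the 8 pairs was 0.07 on average and ran from -0.16 to 0.45. It was above 0.1 in 3 pairs, and 3 of 16 mice were closest to the mouse with their own number.

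Of 520 values for the 20 members described by mouse, 497 kept the direction, and 23 values, in 6 members, did not. The cause was not tested. With the run as a term, Ifih1 was at 0.020, Psmb10 at -0.032 and Lgals3bp at -0.019. Without the run 36 to 38, Psmb10 was at -0.044 and Lgals3bp at -0.0040. Without the run 69 to 72, Bst2 was at 0.0016, Stat2 at -0.034, Iigp1 at -0.097 and Psmb10 at -0.051. With single mice left out, the log2 fold change of Bst2 ran from -0.086 to 0.022, that of Ifih1 from -0.074 to 0.026, that of Psmb10 from -0.039 to 0.074 and that of Iigp1 from -0.0067 to 0.21. Adjusted p-values of the 20 members ran from 0.364 to 1.00.

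Reads per library are unknown, so what depth limits cannot be given.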
